A study of Danio rerio with 6 samples.

Results

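Cytochrome P450 genes (*cyp* genes) were examined in whole zebrafish embryos that lacked or carried a working *tdp1* gene. The members were the genes whose array rows carry exactly 1 gene symbol in the platform annotation, where that symbol starts with cyp and a number, with *cyp51* left out. The rule found 74 genes on 78 rows, of 19260 genes with 1 symbol and 75212 rows in all. For the 4 genes with 2 rows (*cyp27a1.2*, *cyp2aa12*, *cyp2x10.2* and *cyp2y3*) the row with the higher mean was used. A further 6 rows name a P450 gene together with other genes and were left out. Among the genes on them are *cyp1a*, *cyp27c1* and the *cyp8b1* genes. The 74 genes fall into 15 families by the first number of their names, and 36 of them belong to family 2.

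The genotypes were compared on 6 arrays, 3 of *tdp1-/-* embryos and 3 of *tdp1WT* embryos, numbered 1 to 3 in each genotype. Every embryo was 5 dpf (days post-fertilization) at harvest and had been in 500 nM camptothecin (CPT) for 16 hours. CPT traps topoisomerase 1 on DNA, and Tdp1 is an enzyme that removes trapped topoisomerase 1 from DNA ends. The arrays hold no embryos without CPT, so each difference below is one between genotypes under CPT. The *tdp1-/-* line carries small frameshift deletions made with CRISPR-Cas9, and neither the allele combination nor the number of embryos behind each array is given in the sources used here. RNA came from the whole animal, so fewer cells of a type and less RNA per cell cannot be told apart.

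P450 enzymes are heme proteins that add oxygen to a substrate with electrons passed on from a reductase. In vertebrates, families 1 to 3 are best known for the oxidation of foreign compounds and fatty acids, with the liver and intestine as main sites, and family 4 hydroxylates fatty acids. The families with higher numbers make or degrade steroids, bile acids, retinoic acid and vitamin D, several of them in mitochondria.

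The values are log2 signals after RMA (robust multi-array average), in which background is subtracted, the probe signals of the arrays are brought to 1 distribution and the probes of a row are summarized. The median row of an array read 4.66 to 4.87, and Pearson's r between any pair of arrays was 0.9693 to 0.9876. The row of *tdp1* itself read 5.59, 5.34 and 5.85 in *tdp1WT* replicates 1 to 3 and 5.18, 5.17 and 5.24 in *tdp1-/-* (log2 fold change -0.40, unadjusted p = 0.0452). All *tdp1-/-* arrays were below all *tdp1WT* arrays for this gene, as labelled. A gene was called higher or lower in *tdp1-/-* embryos when its fold change exceeded 1.2 and its unadjusted limma p was under 0.05. Over the whole table, 2.28% of rows were called higher and 1.29% lower in this way. After Benjamini-Hochberg adjustment over all rows, limma called 0.0% (0 of 75212). The lowest adjusted p of a P450 gene was 1.0, and 0.739 with the replicate number as a block, so every call below rests on an unadjusted p.

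Of the 74 P450 genes, 3 were called higher in *tdp1-/-* embryos, which is 4.05% of them, and 0 were called lower. Among all genes with 1 symbol, 0.852% were called higher and 1.04% lower. The 3 genes were *cyp27a2* and *cyp27a1.4*, of the sterol 27-hydroxylase type that in mammals starts the side-chain cleavage of cholesterol in bile acid synthesis, and *cyp3c4*, of a subfamily found in fish. With the replicate number as a block, which compares same-numbered arrays, *cyp7a1* was called higher as well. That made 4 genes, or 5.41%, against 1.55% of all genes called higher with the block, and again 0 lower, against 2.49% of all genes. The P450 genes as a whole did not move far: the median log2 fold change was 0.018 against -0.005 over all genes, 42 genes lay above 0 and 32 below, and 60 of 74 lay within a 1.2-fold difference. The split around 0 depended on scaling: 38 genes lay below 0 after a further quantile normalization and 39 after median centring, so the majority turned, and 25 to 40 lay below 0 with 1 array left out.

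**Figure D1:**
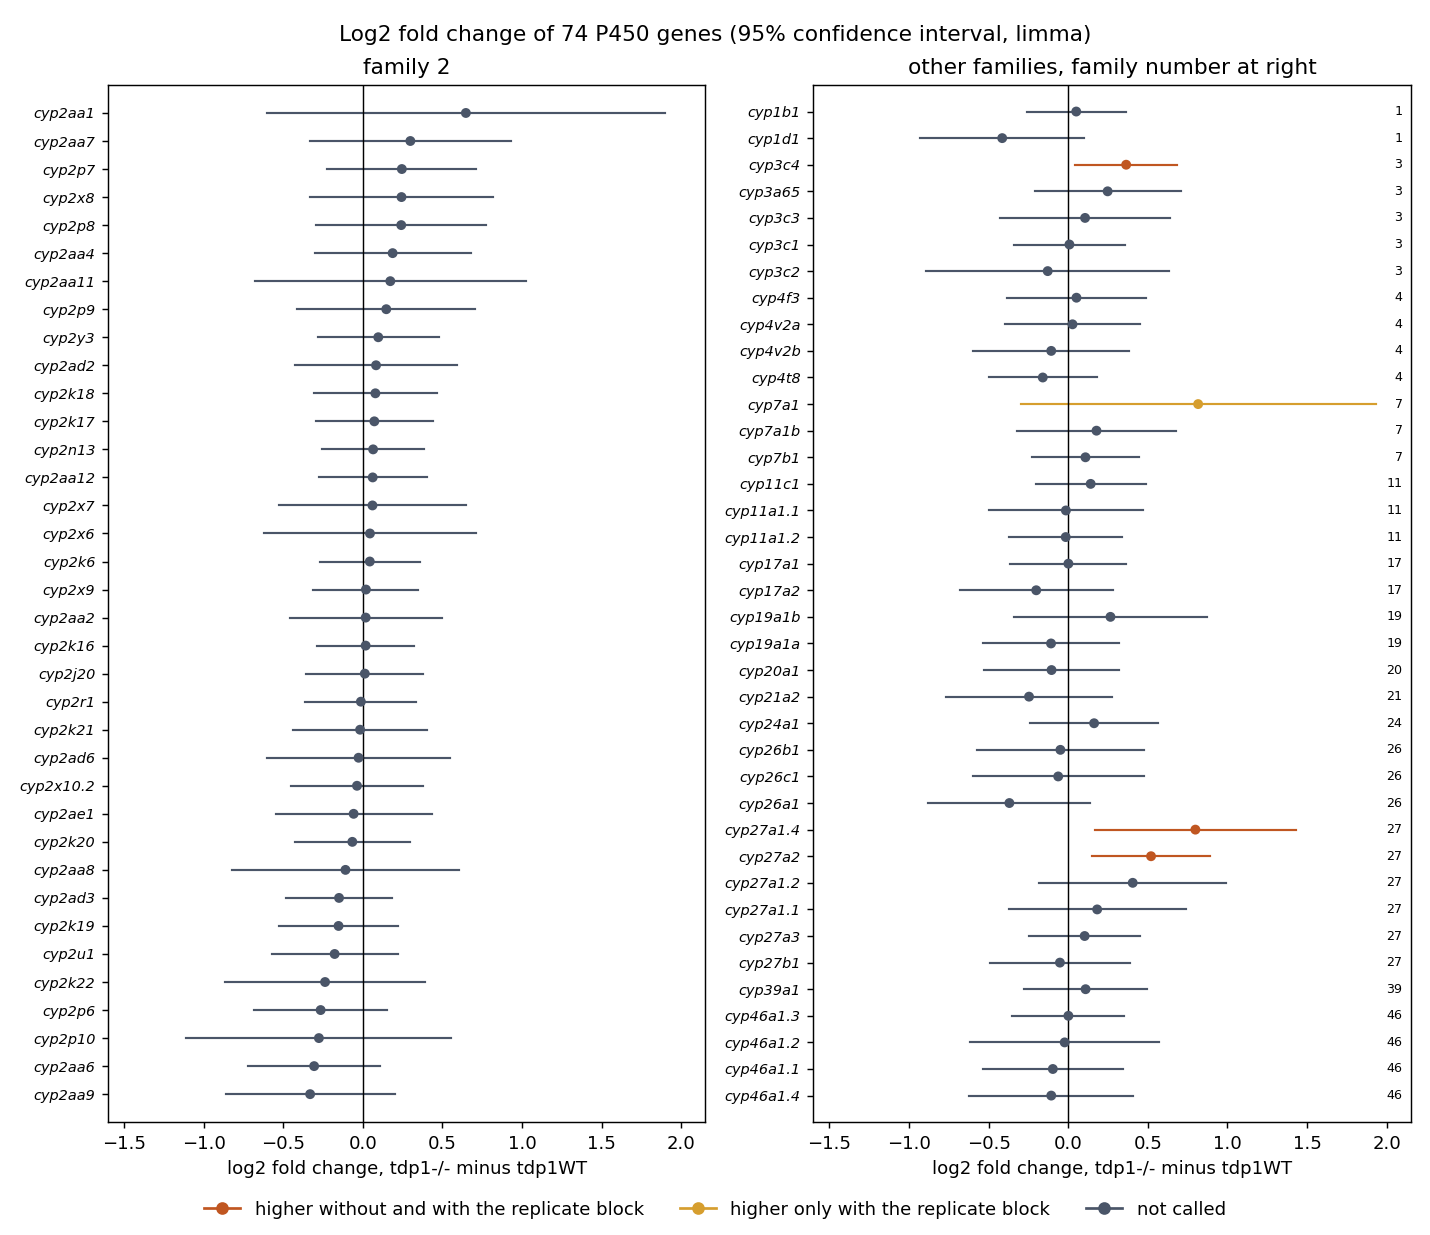
Log2 fold change (*tdp1-/-* minus *tdp1WT*, horizontal axis) of each of the 74 P450 genes, with family 2 at left and the other families at right. Points are limma estimates over 6 arrays and bars their 95% confidence intervals. The intervals of *cyp27a2*, *cyp27a1.4* and *cyp3c4* lie above 0, and all others cross it.

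The first called gene, *cyp27a2*, read 6.52, 6.59 and 6.23 in *tdp1WT* replicates 1 to 3 and 7.03, 6.82 and 7.05 in *tdp1-/-*. The lowest *tdp1-/-* array was above the highest *tdp1WT* array, and each *tdp1-/-* array was above its same-numbered partner. Means were 6.45 ± 0.19 and 6.97 ± 0.13 (SD, n = 3 each), a 1.435-fold difference (log2 0.52, 95% confidence interval 0.15 to 0.89). The limma p was 0.0125 unadjusted, 0.0214 with the block and 1.0 adjusted, and the exact permutation test over arrays gave 0.1, the smallest p that 3 against 3 arrays allow. This gene was called under every setting tried, including each of the 6 fits with 1 array left out.

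The second, *cyp27a1.4*, is a dim row. It read 2.76, 2.35 and 2.68 in *tdp1WT* and 3.32, 2.92 and 3.95 in *tdp1-/-* embryos, 1.74-fold higher (log2 0.80, 0.17 to 1.43). The groups did not overlap, but *tdp1-/-* replicate 3 stood well above both other arrays of its genotype, and without it the log2 difference was 0.52 (unadjusted p = 0.0438). Its unadjusted p was 0.0196, and 0.00838 with the block. Without *tdp1WT* replicate 2, the lowest array, the log2 difference was 0.68 with unadjusted p = 0.0666, and the call was lost.

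*cyp3c4* read 4.81, 5.05 and 4.91 in *tdp1WT* embryos and 5.26, 5.27 and 5.34 in *tdp1-/-* embryos. The *tdp1-/-* arrays lay close together (SD 0.042) and above all *tdp1WT* arrays, at a 1.29-fold higher mean (log2 0.36, 0.045 to 0.68, unadjusted p = 0.0303). The call was lost in 5 of the 6 fits with 1 array left out and kept without *tdp1WT* replicate 2: p was 0.115 without *tdp1WT* replicate 1, 0.0668 without *tdp1WT* replicate 3, and 0.0509, 0.0518 and 0.0747 without *tdp1-/-* replicates 1, 2 and 3.

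*cyp7a1* encodes the rate-limiting enzyme of bile acid synthesis in mammals. Its signal was 5.78, 7.25 and 5.51 in *tdp1WT* replicates 1 to 3 and 6.62, 7.62 and 6.75 in *tdp1-/-* replicates 1 to 3. Replicate 2 was the highest array in both genotypes, so the groups overlapped, while each *tdp1-/-* array was above its partner of the same number. The mean was 1.76-fold higher in *tdp1-/-* embryos (log2 0.82, -0.30 to 1.93), with an unadjusted p of 0.128 without the block and 0.00911 with it. Over the fits with 1 array left out the difference ranged from 0.48 without *tdp1WT* replicate 3 (unadjusted p = 0.362) and 0.50 without *tdp1-/-* replicate 2 (unadjusted p = 0.354) to 1.35 without *tdp1WT* replicate 2 (unadjusted p = 0.00495).

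**Figure D2:**
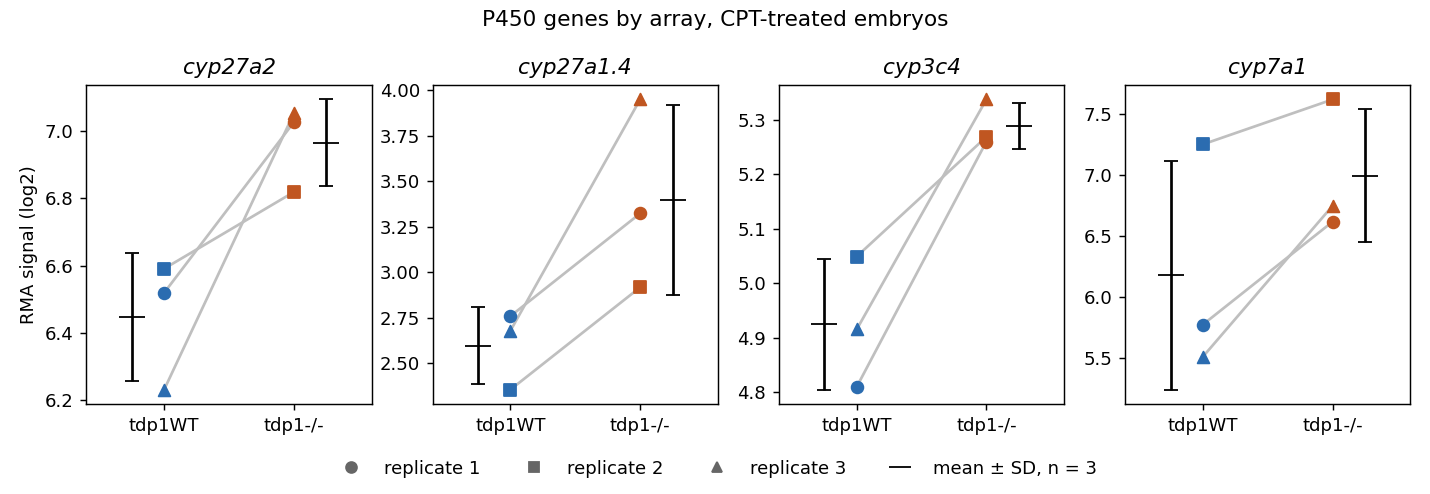
RMA signal (log2, vertical axis, a separate range for each gene) of *cyp27a2*, *cyp27a1.4*, *cyp3c4* and *cyp7a1* on the 6 arrays by genotype. Marker shapes give the replicate number, grey lines join same-numbered arrays and black bars are mean ± SD (n = 3). The first 3 genes have no overlap between genotypes, whereas *cyp7a1* overlaps and is higher in *tdp1-/-* within each pair.

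The other sterol 27-hydroxylase genes lay on the same side without a call. All 5 *cyp27a* genes, the called *cyp27a2* and *cyp27a1.4* included, had a log2 fold change above 0, under each scaling too. Their median was 0.41, the value of the dim *cyp27a1.2*. It was 0.33 with further quantile normalization and 0.38 with median centring. With the mean of all rows of a gene it was 0.22, and for the 3 genes with a mean log2 of at least 4 it was 0.18. Without *tdp1-/-* replicate 3, where *cyp27a1.1* was at -0.0018, 4 of 5 lay above 0, with a median of 0.13. *cyp27a1.2* was at 0.41 (-0.18 to 0.99), with 2.09, 1.88 and 2.07 in *tdp1WT* and 2.02, 2.26 and 2.98 in *tdp1-/-* embryos, so that its mean was carried by *tdp1-/-* replicate 3. Without that array its difference was 0.13 (unadjusted p = 0.485), without *tdp1-/-* replicate 1 it was 0.60 (unadjusted p = 0.0443), and its dimmer second row gave 0.03. *cyp27a1.1* was at 0.18 and *cyp27a3* at 0.10, each higher in 2 of 3 pairs. Without *tdp1-/-* replicate 2, the lowest array, *cyp27a1.1* was at 0.44 and called higher (unadjusted p = 0.0341). *cyp27b1*, which makes the active form of vitamin D, differed by -0.05 (-0.49 to 0.39) and was the family's only gene below 0.

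The remaining bile acid and oxysterol genes among the members differed little. The *cyp8b1* genes were left out by the rule and are not covered here. *cyp7a1b*, a second *cyp7a* gene, was at 0.18 and *cyp7b1*, the oxysterol hydroxylase of the alternative route, at 0.11, so all 3 genes of family 7 lay above 0. *cyp7a1b* was at 0.41 and called higher without *tdp1-/-* replicate 1 (unadjusted p = 0.0356), and at 0.020 without *tdp1-/-* replicate 2. *cyp39a1*, which acts on 24-hydroxylated cholesterol in mammals, was at 0.11 (-0.28 to 0.49). The 4 *cyp46a1* genes, named for the cholesterol hydroxylase of mammalian neurons, ranged from -0.11 to 0.0016, and *cyp46a1.1* read 3.07 ± 0.083 in *tdp1WT* and 2.97 ± 0.32 in *tdp1-/-* embryos (SD, n = 3).

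Other genes of bile acid synthesis, its regulation and bile acid transport gave no call of their own without the block. Of 17 listed genes measured, 0 were called, 6 lay above 0 and 11 below, and their median was -0.045. With the block, where 2.49% of all genes were called lower, *nr0b2a* was called lower. It encodes the nuclear receptor partner Shp, which in mammals represses *Cyp7a1*. Its signal was 7.15, 6.39 and 7.49 in *tdp1WT* and 6.70, 6.19 and 7.17 in *tdp1-/-* embryos, so the groups overlapped. The log2 fold change was -0.32, with an unadjusted limma p of 0.373 without the block and 0.0444 with it. Replicate 2, where *cyp7a1* was highest, was the lowest array for *nr0b2a* in both genotypes, and the gene was lower in all 3 pairs. Its part in the *cyp7a1* difference was not tested.

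Retinoic acid is cleared by the *cyp26* genes, and all 3 had a log2 fold change below 0, though 1 of the 3 lay above 0 in each fit with 1 array left out. *cyp26a1* read 4.32, 4.37 and 5.05 in *tdp1WT* and 4.101, 4.29 and 4.24 in *tdp1-/-* embryos (-0.37, -0.88 to 0.14, unadjusted p = 0.131). It was the only P450 gene with every *tdp1-/-* array below every *tdp1WT* array. The distance came mostly from *tdp1WT* replicate 3: without it the difference was -0.13 (unadjusted p = 0.427). *cyp26b1* (-0.05) and *cyp26c1* (-0.06) were lower in 2 of 3 pairs each, and their groups overlapped.

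Upward separation of the genotypes without overlap was about as frequent among the P450 genes as among all genes, and downward separation rested on 1 gene. The 3 genes with every *tdp1-/-* array above every *tdp1WT* array are 4.05% of the P450 genes, against 3.64% of all genes, and the 1 gene in the opposite direction is 1.35%, against 4.08% of all genes.

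**Figure D3:**
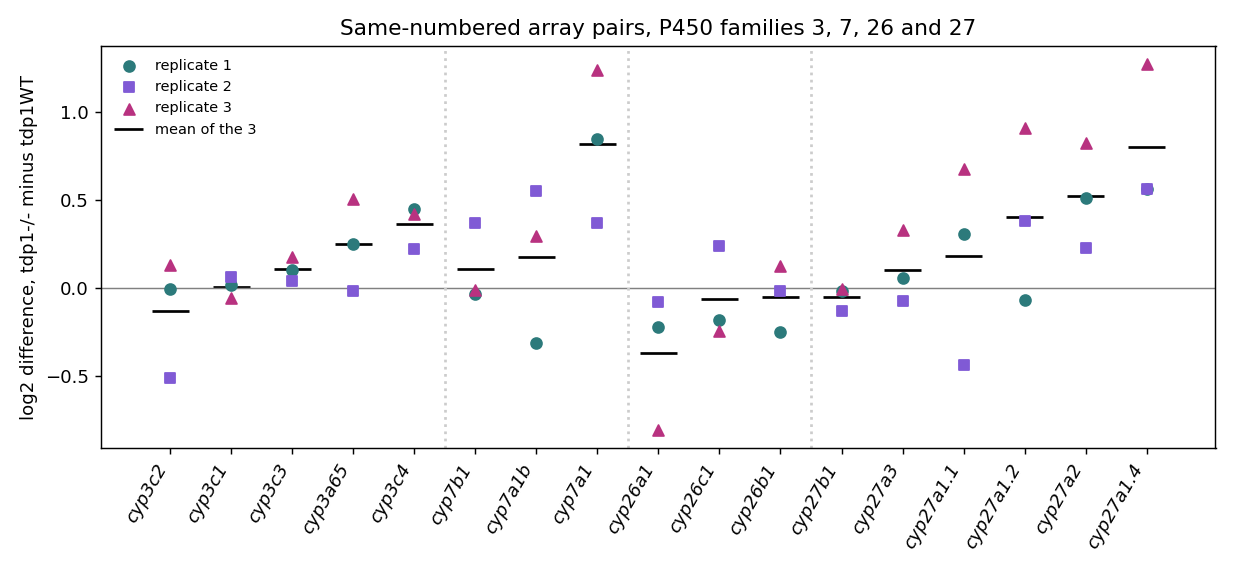
Difference in log2 signal between same-numbered arrays (*tdp1-/-* minus *tdp1WT*, vertical axis) for the genes of families 3, 7, 26 and 27, separated by dotted lines and ordered by mean within a family. Colours and shapes give the replicate number and black lines the mean of the 3. All 3 pairs are above 0 for *cyp3c3*, *cyp3c4*, *cyp7a1*, *cyp27a1.4* and *cyp27a2*, and all 3 are below 0 for *cyp26a1* and *cyp27b1*.

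Family 3, whose mammalian members oxidize a wide range of drugs, had 4 of 5 genes above 0, or 3 of 5 after a further quantile normalization or median centring, which turned *cyp3c1*. *cyp3a65*, an intestinal and hepatic gene of larvae, had the highest signal of all members: 9.92, 9.63 and 9.64 in *tdp1WT* and 10.18, 9.62 and 10.15 in *tdp1-/-* embryos (0.25, -0.21 to 0.71, unadjusted p = 0.244). The pair of replicate 2 differed least, and without *tdp1-/-* replicate 2 the difference was 0.43 with unadjusted p = 0.0395. Without *tdp1-/-* replicate 1 it was 0.15 (unadjusted p = 0.511) and without *tdp1-/-* replicate 3 it was 0.16 (unadjusted p = 0.483). The neighbours of *cyp3c4* were nearer 0, with *cyp3c1* at 0.0081, *cyp3c3* at 0.11 and *cyp3c2* at -0.13. *cyp3c2* varied within genotype more than between them, from 4.26 to 5.52 in *tdp1WT* and from 4.39 to 5.01 in *tdp1-/-* embryos.

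Family 1 includes classic targets of the aryl hydrocarbon receptor, but *cyp1a* was left out by the rule. The *cyp1d1* values are not taken as a measure of that receptor's activity. *cyp1d1* read 7.14, 6.48 and 6.57 in *tdp1WT* against 6.31, 6.55 and 6.08 in *tdp1-/-* embryos (-0.41, -0.93 to 0.10, unadjusted p = 0.101). The pair of replicate 2 went the other way, so the groups overlapped. Without *tdp1WT* replicate 1, the highest array, the difference was -0.21 (unadjusted p = 0.342). *cyp1b1* read 5.02 ± 0.055 and 5.07 ± 0.085 (SD, n = 3), a difference of 0.05 (-0.26 to 0.36). In the list of this receptor's pathway, 0 of 13 genes were called higher and 1 lower, against 0.852% and 1.04% of all genes. The 1 was *nqo1*, a quinone reductase. *nqo1* read 7.40, 7.43 and 7.47 in *tdp1WT* and 7.06, 6.89 and 6.68 in *tdp1-/-* embryos, 1.469-fold lower (log2 -0.56, unadjusted p = 0.00669), with no overlap.

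Family 2, the largest, had 0 genes called in either direction, with or without the block. Its 36 genes had a median log2 fold change of 0.019 and ranged from -0.33 (*cyp2aa9*) to 0.65 (*cyp2aa1*), with 21 above 0 and 15 below. The smallest p in the family was that of *cyp2aa6* (-0.31, unadjusted p = 0.127). The *cyp2aa1* value comes from 1 array: *tdp1WT* replicate 3 read 3.01, against 4.91 and 5.21 in the other *tdp1WT* arrays and 5.34, 4.91 and 4.82 in *tdp1-/-* embryos, and without it the difference was -0.037. The 8 *cyp2k* genes, a fish subfamily, stayed within -0.24 and 0.08. *cyp2ad2* and *cyp2ad6*, among the brightest members, differed by 0.08 and -0.03 and varied together across the 6 arrays (r = 0.956). *cyp2r1*, a vitamin D 25-hydroxylase in mammals, was at -0.01 (-0.36 to 0.34), and *cyp2u1*, a fatty acid hydroxylase in mammals, at -0.18.

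For the steroid makers the mean signals ranged from 2.17 (*cyp11a1.2*) to 5.25 (*cyp17a2*), and no call was made over all 6 arrays, with or without the block. The side-chain cleavage genes *cyp11a1.1* and *cyp11a1.2* read means of 2.82 and 2.17 in *tdp1WT* embryos and differed by -0.014 and -0.015. *cyp11c1*, the 11-beta-hydroxylase that completes cortisol, was at 0.14 (-0.20 to 0.49) and was higher in all 3 pairs. *cyp17a1*, the hydroxylase and lyase, was at 0.0016, *cyp17a2*, a hydroxylase, at -0.20 and lower in all 3 pairs, and *cyp21a2*, the 21-hydroxylase, at -0.25 (-0.76 to 0.27). For *cyp21a2* the *tdp1-/-* arrays read 3.55, 3.69 and 4.34 against 4.00 to 4.17 in *tdp1WT* embryos, so that replicate 3 lay above and the other pair of arrays below the *tdp1WT* range. Its difference was -0.49 without *tdp1-/-* replicate 3 (unadjusted p = 0.0199), but -0.09 without *tdp1-/-* replicate 1 (unadjusted p = 0.699) and -0.16 without *tdp1-/-* replicate 2 (unadjusted p = 0.551).

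The aromatases make estrogen, *cyp19a1a* chiefly in the gonad and *cyp19a1b* in radial glia of the brain. *cyp19a1b* read 3.93, 3.99 and 4.28 in *tdp1WT* and 3.83, 4.34 and 4.83 in *tdp1-/-* embryos (0.27, -0.34 to 0.87, unadjusted p = 0.336), while *cyp19a1a* was at -0.11. The *cyp19a1b* arrays overlapped, and replicate 1 was lower in *tdp1-/-* embryos. Its difference was 0.52 without *tdp1-/-* replicate 1 (unadjusted p = 0.0497), but 0.017 without *tdp1-/-* replicate 3 (unadjusted p = 0.94). Among the other steroid genes, 1 of 23 was called lower and 0 higher, against 1.04% and 0.852% of all genes. The 1 was *hsd11b2*, which inactivates cortisol (-0.47, unadjusted p = 0.0356). That call was lost without *tdp1WT* replicate 1 (unadjusted p = 0.0829) or 3 (unadjusted p = 0.116) and without *tdp1-/-* replicate 1 (unadjusted p = 0.0562) or 2 (unadjusted p = 0.103).

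*cyp24a1*, which degrades active vitamin D, was among the brightest members. It read 7.80, 7.59 and 7.93 in *tdp1WT* and 8.08, 7.69 and 8.03 in *tdp1-/-* embryos and was higher in all 3 pairs, by 0.16 on average (-0.24 to 0.56, unadjusted p = 0.371). Of 13 other vitamin D and calcium genes, *gc*, the vitamin D binding protein, was called higher (0.48, unadjusted p = 0.0247) and 0 lower. Over all genes, 0.852% were called higher and 1.04% lower. The *gc* call was lost without *tdp1WT* replicate 1 (unadjusted p = 0.0662), *tdp1WT* replicate 3 (unadjusted p = 0.083) or *tdp1-/-* replicate 3 (unadjusted p = 0.0771). Of 24 other retinoic acid genes, *dhrs3a*, a retinal reductase, was called lower (6.67 ± 0.22 against 6.09 ± 0.17, SD, n = 3) and 0 higher. Its log2 fold change was -0.58 with unadjusted p = 0.0107. With the block, where 2.49% of all genes were called lower, *rpe65a*, the retinoid isomerase of the eye, was called lower too.

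Family 4 and the orphan *cyp20a1* showed no call. *cyp4t8* was lower in all 3 pairs (-0.16, -0.50 to 0.18), *cyp4f3* was at 0.05, and *cyp4v2a* and *cyp4v2b*, related to a human gene for a fatty acid hydroxylase of the retina, were at 0.03 and -0.11. *cyp20a1*, whose substrate is not known, was at -0.10 (-0.53 to 0.32).

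Proteins that serve or follow P450 enzymes gave few calls. Among 15 genes for electron donors, heme synthesis and heme breakdown 0 were called, and with the block *hmox2a* was higher (0.32, unadjusted p = 0.0383) and *hmox1a* lower (-0.38, unadjusted p = 0.0373), both heme oxygenases. Without the block, 0 calls were made among 27 nuclear receptors and partners, 21 conjugating enzymes of the UGT and SULT type, 19 glutathione S-transferases, 18 other oxidases and esterases, or 18 eicosanoid enzymes. Their medians lay between -0.045 and 0.049. With it, *pparg* was called lower beside *nr0b2a* in the first of these lists, *ugt5c1* higher and *sult5a1* lower in the second, and *ces2a* higher and *aldh2.2* lower among the oxidases and esterases. Of 22 drug transporters, *abcb5*, an efflux pump gene, was called lower (-0.58, unadjusted p = 0.0215) and 0 higher. Without the block, 1.04% of all genes were called lower. Among the 22, 6 lay above 0 and 16 below, with a median of -0.12, and 51.4% of all genes lay below 0. The *abcb5* call was lost without *tdp1WT* replicate 1 (unadjusted p = 0.0773), *tdp1WT* replicate 3 (unadjusted p = 0.0591) or *tdp1-/-* replicate 2 (unadjusted p = 0.0647). With the block, 3 transporters were called lower, *abcg2b* and *slc22a7a* being the others. The block raised calls over all genes too, to 1.55% higher and 2.49% lower.

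Tissue markers were read beside these values because most P450 genes are expressed in few organs. For 7 liver markers the mean signal per array was 7.75 to 7.85 in *tdp1WT* and 7.75 to 7.83 in *tdp1-/-* embryos, and 0 were called. Of these, 2 lay above 0 and 5 below, with a median of -0.11. *apoa1a* (-0.25) and *vtna* (-0.13) were lower in all 3 pairs, and *serpina1* (0.53) was higher in all 3 and called higher with the block (unadjusted p = 0.0316). For 9 intestine markers the range was 7.82 to 7.91 against 7.74 to 7.81, with no overlap of the means, 0 called with or without the block and a median of -0.059. Of these 9, 2 lay above 0 and 7 below. For 6 interrenal markers, the steroid-making cells, it was 3.70 to 4.08 against 3.68 to 4.03. Markers of pancreas, kidney tubule, neuron, radial glia and muscle, 6 to 8 each, gave 0 calls without the block, and with it *gfap* of radial glia was lower (-0.45, unadjusted p = 0.0431). Below 0 lay 7 of 8 kidney tubule, 6 of 7 neuron, 4 of 6 radial glia and 4 of 6 muscle markers. So did 4 of 6 interrenal and 2 of 7 pancreas markers, against 51.4% of all genes.

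By its median log2 fold change (-0.47) the epidermis list lay farthest from 0 among the marker lists. Of 6 measured, 0 were called higher and 3 lower, against 0.852% and 1.04% of all genes. The 3 were the keratins *krt5* (-0.50, unadjusted p = 0.0291) and *krt91* (-0.45, unadjusted p = 0.0162) and *icn2* (-0.63, unadjusted p = 0.00451). The mean signal of the 6 was 8.82 to 9.02 in *tdp1WT* and 8.34 to 8.69 in *tdp1-/-* embryos. The *krt5* call was lost without *tdp1WT* replicate 1 (unadjusted p = 0.0901) or 3 (unadjusted p = 0.0633) or *tdp1-/-* replicate 2 (unadjusted p = 0.0752), and that of *krt91* without *tdp1WT* replicate 1 (unadjusted p = 0.0667). With the block, where 2.49% of all genes were called lower, *ppl* was called lower as well. Of the pair of swim bladder markers, *sftpbb* was called lower (-0.37, unadjusted p = 0.0479). That call was lost with array weights (unadjusted p = 0.103), with a trend in the prior (unadjusted p = 0.0572) and in 5 of 6 fits with 1 array left out, the exception being the fit without *tdp1WT* replicate 1. RMA signals have no true zero, so none of these markers can be called absent. The part of such differences in the P450 values was not tested.

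Same-numbered arrays shared some of the variation. The *tdp1-/-* array was the higher one for 34 of 74 P450 genes in replicate 1, 48 in replicate 2 and 37 in replicate 3, with median differences of -0.013, 0.076 and -0.0007. Deviations from the genotype mean, taken over the 74 genes, gave an r between same-numbered arrays of 0.2274 for replicate 1, 0.2878 for replicate 2 and 0.3697 for replicate 3. All 3 pairs were up for 10 genes (13.5%, against 14.4% of all genes) and down for 7 (9.46%, against 16.8%). *tdp1-/-* replicate 3 held the highest signal for 24 genes and *tdp1-/-* replicate 1 the lowest for 18.

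P450 genes often lie side by side. In the RefSeq gene order of assembly GRCz12tu, 43 of the 73 matched genes fell into 8 runs, in which each P450 gene lies within 5 places of the next. Neighbours did not move alike in every run. The 4 *cyp46a1* genes on chromosome 20 had a median pairwise r of 0.814 over the 6 arrays, and the 3 *cyp27a1* genes on chromosome 9 of 0.704. For the 9 genes of the run on chromosome 23 the median r was -0.058. That run holds *cyp2ae1* and the *cyp2aa* genes other than *cyp2aa7*, which had no RefSeq match. For the 4 genes of the *cyp2x* run on chromosome 25 it was -0.144, against 0.109 over all 2701 pairs of P450 genes. Probes of close paralogs can share signal. The scaling of the arrays, the genotype difference and any batch, which the labels do not name, can also enter such an r. These r are therefore descriptions only. *cyp26c1* alone lies on chromosome 17 with *tdp1*.

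**Figure D4:**
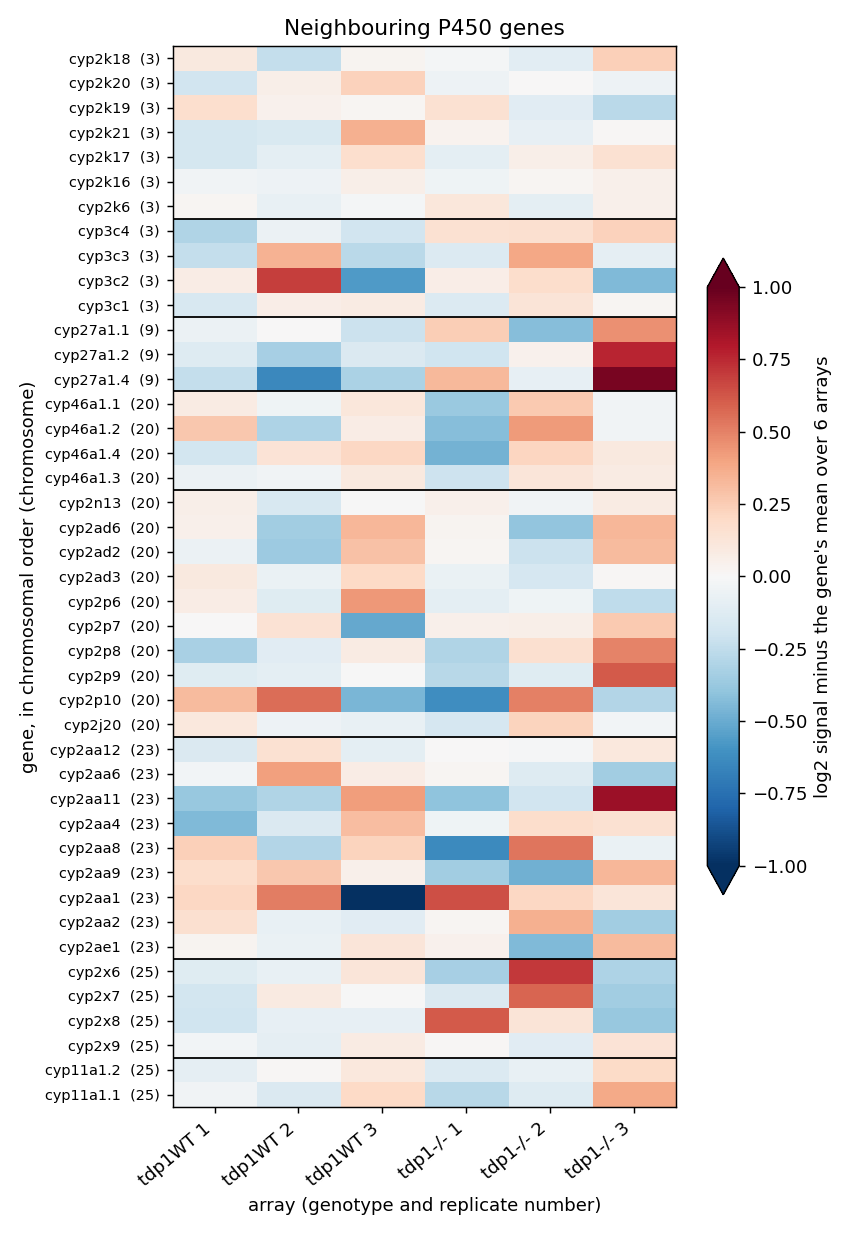
Signal of the 43 P450 genes in chromosomal runs (rows, chromosome in parentheses, runs separated by black lines) on the 6 arrays (columns), as the log2 distance from the mean of the gene over all arrays. Red is above and blue below the mean, and colours stop at 1 in either direction, which *cyp2aa1* exceeds on *tdp1WT* replicate 3. The *cyp46a1* genes vary together, whereas the *cyp2aa* genes differ from row to row.

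The pattern of *cyp27a2* over the 6 arrays was most like those of *cyp3c4* (r = 0.876), *cyp2p7* (r = 0.794) and *cyp27a1.4* (r = 0.773). *cyp3c4* and *cyp27a1.4* were called higher on these same arrays. Genes called in the same direction share the genotype difference, so a high r between them follows in part from the calls and is no separate result. *cyp2p7* read 5.92, 6.06 and 5.40 in *tdp1WT* and 5.96, 5.97 and 6.18 in *tdp1-/-* embryos (0.25, unadjusted p = 0.257). Its lowest array was *tdp1WT* replicate 3, as for *cyp27a2*, and its groups overlapped.

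Signals of different genes come from different probes and are not compared as amounts. By mean signal the members ranged from 1.77 (*cyp2k20*) to 9.86 (*cyp3a65*), and 25 of 74 lay below the median of the table, 4.77. The other dim members were *cyp11a1.2* (2.17) and *cyp27a1.2* (2.22), and the other bright ones *cyp2ad2* (8.51), *cyp2ad6* (8.06), *cyp24a1* (7.86) and *cyp4v2a* (7.82). The spread within a genotype was slightly wider than for other genes, with a median SD of 0.18 in *tdp1WT* and 0.22 in *tdp1-/-* embryos, against 0.16 and 0.19 over all genes.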

How the data were processed

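Total RNA of whole 5 dpf embryos was labelled by the authors with the Affymetrix WT plus protocol, and the deposited values are log2 signals that the authors made with RMA in the Transcriptome Analysis Console 4.0. These are array signals, so no reads were aligned to a genome. Quantile normalization within RMA brings the probe signals of the arrays to the same distribution, so only differences relative to the rest of the table are measured. The summarized rows still had array medians of 4.66 to 4.87. The number of arrays, 3 per genotype, limits the precision. RMA gives no detection call, so dim rows were kept.

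The table was fitted as deposited with R 4.3.3 and limma 3.58.1 (lmFit, eBayes, two-sided), over all 75212 rows and 6 arrays without a block, as the study's methods name none, and p was adjusted by Benjamini-Hochberg over all rows. The fold threshold of 1.2 is the study's. The fit was also run on simulated data with independent values and no replicate pairing, as a check of the code only. Exact permutation tests used all splits of the arrays, two-sided. Of the rows, 20806 carry 1 symbol, 855 several and 53551 none, and 14293 share all values with another row, none of them a P450 row. RefSeq (GRCz12tu) gave chromosome and gene order for 73 of the 74 genes.

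Genotype and number came from the sample titles. The numbers were taken to pair the arrays, because deviations of same-numbered arrays correlated at 0.2029, 0.2156 and 0.2901 over all rows, all over 0.1. The paper describes independent experiments. Nothing says whether arrays of a genotype share parents, so p measures the spread between these samples.

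Alternatives were a further quantile normalization, median centring, array weights, an intensity trend in the prior, the replicate block, a minimum mean log2 of 4, the mean of all rows of a gene, identical rows counted once, symbols updated by Entrez ID and leaving out each array. The block with the further normalization was chosen after seeing the data.

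Named genes were those called with or without the block, the smallest p of each family, well-known P450 genes, the 5 brightest and 3 dimmest members, up to 4 called genes of each of 22 lists and the 3 members most like *cyp27a2*. The other genes named (further members, list genes called only with the block) were chosen after their values were seen. The members and lists were chosen with earlier results of these data known.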

Additional observations from a re-analysis of the deposited data

How the results depend on the processing

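The count of P450 genes called higher was 3 in the fit as described and under further normalization, median centring, array weights, the prior trend, gene means, distinct rows and updated symbols, with the same 3 genes each time. It was 4 with the replicate block, alone or with further quantile normalization (an alternative chosen after seeing the data), where *cyp7a1* joined (log2 fold change 0.82, and 0.81 with the normalization, unadjusted p = 0.0123). The minimum mean of 4 left 56 genes and 2 calls, since *cyp27a1.4* fell below it. Leaving out 1 array gave 2 to 5 genes called higher, 0 to 2 called lower and a median log2 fold change of -0.012 to 0.071. The 5 came without *tdp1-/-* replicate 1 (*cyp27a2*, *cyp7a1b*, *cyp19a1b*, *cyp27a1.4*, *cyp27a1.2*), where the median was 0.071. The 2 lower (*cyp21a2*, *cyp2aa9*) came without *tdp1-/-* replicate 3, where *cyp2x8* was called higher. Calls over the whole table rose as well without *tdp1-/-* replicate 1, to 6.65% of rows in either direction, against 3.57% in the fit as described. With any other array left out the share was 2.5% to 3.55%, and with the replicate block it was 6.42%. The 5 calls are therefore not particular to the P450 genes. The block changed no other call among the P450 genes, and with it the lowest adjusted p was 0.739. The median of 0.018 turned to -0.0063 with further quantile normalization and -0.0037 with median centring.

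Some differences near 0 turned sign, for 7 of 74 genes with array weights, 6 with further quantile normalization and 7 with median centring. Among the genes named by the rule, those with array weights were *cyp11a1.1* (0.028), *cyp11a1.2* (0.020), *cyp27b1* (0.011) and *cyp2ad6* (0.016). With further quantile normalization *cyp17a1* was at -0.023 and *cyp3c1* at -0.0098, without or with the block, and with median centring they were at -0.020 and -0.014. Among the same genes, over the fits with 1 array left out, *cyp11a1.1* ranged from -0.21 to 0.12, *cyp11a1.2* from -0.12 to 0.051, *cyp17a1* from -0.065 to 0.10, *cyp20a1* from -0.22 to 0.022, *cyp26b1* from -0.24 to 0.093, *cyp26c1* from -0.30 to 0.096, *cyp27b1* from -0.20 to 0.071, *cyp2ad2* from -0.076 to 0.25, *cyp2ad6* from -0.21 to 0.17, *cyp2k20* from -0.18 to 0.034, *cyp3c1* from -0.069 to 0.080, *cyp46a1.1* from -0.25 to 0.067 and *cyp4v2a* from -0.10 to 0.12. The cause was not tested. With 3 arrays a genotype, the 95% interval reached past a 1.2-fold difference in both directions for 53 of 74 members. For them, a difference of that size in either direction stayed within the interval. The narrowest interval of all, that of *cyp2k16*, one of the 53, ran from -0.29 to 0.32. Every other member, also those outside the 53, had a wider interval.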
